A study of Homo sapiens with 4 samples.

Results

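This report describes 10 genes whose products fill the granules or stud the surface of blood platelets. They are VWF, PPBP, PF4 and PF4V1, which encode secreted granule proteins, and ITGA2B, ITGB3, GP1BA, GP1BB, GP9 and GP6, which encode surface glycoproteins. Every probe on the array that carried 1 of these gene names was taken, which gave 13 probes of the 58185 analysed and 10 of 43311 gene names. Of the 10 genes, 6 gave a signal well above background on at least 1 of the 4 arrays (VWF, PPBP, ITGA2B, GP1BB, GP9 and GP6), and the other 4 gave none on any array (PF4, PF4V1, ITGB3 and GP1BA). By probe, 7 of the 13 were well above background on at least 1 array, 4 on all 4 arrays and 6 on none.

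MDS-L, a human cell line derived from myelodysplastic syndrome cells, and MDS-L/CDA, its AZA-resistant derivative made by transduction of CDA, the gene of cytidine deaminase, were each exposed for 72 h to vehicle (0.1% DMSO) or to 5-azacytidine (AZA), a nucleoside analogue that depletes DNA methyltransferases. The dose was 1 μM in one label field, whereas the titles give 1 mM. All cells grew in RPMI1640 with 10% FBS, 50 μM 2-mercaptoethanol and 20 ng/mL IL-3 as labelled. Total RNA from each of the 4 combinations was labelled with Cy3 and hybridized to 1 array, with all 4 arrays on 1 slide. One label field named the opposite treatment for the MDS-L AZA and MDS-L/CDA vehicle arrays, while title, description and source name of both gave the treatments used here. Because each condition had 1 array, no difference has a replicate check and no test was possible.

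The 75th percentile of the signal was between 37.3 and 52.9 on the 4 arrays, and each signal was divided by that of its array before ratios were taken. Between 32.6% and 36.5% of probes were well above background by the flag of the scanner software, and the lowest signal with that flag was between 9.98 and 11.1. A signal below it gives only an upper bound, so "at least" marks a ratio in which the dimmer array was set at that lowest signal or at its own value, whichever was higher. A gene was called higher when a probe had a ratio of at least 2 with a Z score of at least 2, the thresholds that the methods of the study state for upregulation. The same thresholds in the other direction gave the lower calls, and the brighter array had to be well above background, both of which were chosen here. The CDA probe was below background on all 4 arrays (4.48 to 5.53), so it gave no check of the transduced line. All 5 progenitor markers were well above background on every array.

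Platelets are shed by megakaryocytes, which load their granules with VWF and platelet chemokines and place adhesion receptors on the surface. VWF bridges exposed collagen to the GPIb-IX-V complex, in which GP1BA binds VWF, GP1BB is joined to GP1BA by a disulfide bond, and GP9 stabilizes the complex. ITGA2B and ITGB3 form the integrin αIIbβ3, which binds fibrinogen and holds platelets together, and GP6 is the collagen receptor that signals through an immunoreceptor chain. Several of these genes carry GATA and ETS motifs in their promoters, which are bound in megakaryocytes by GATA1 and by ETS factors such as FLI1.

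All probes were 60 bases long, and 4 of those behind the results below are shown. VWF is given with 2 of its 3 probes because they read the same gene differently. VWF (a) lies at chr12:6058183-6058242 and VWF (b) at chr12:6132864-6132923, PPBP at chr4:74853299-74853358 and ITGA2B at chr17:42453290-42453349, all on the minus strand of hg19.
VWF (a): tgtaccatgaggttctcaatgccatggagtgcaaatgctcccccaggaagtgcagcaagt
VWF (b): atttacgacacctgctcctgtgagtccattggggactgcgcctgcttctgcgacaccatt
PPBP: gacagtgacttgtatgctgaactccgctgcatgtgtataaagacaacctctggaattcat
ITGA2B: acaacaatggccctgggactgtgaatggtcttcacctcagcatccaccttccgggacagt
The remaining VWF probe, VWF (c), at chr12:6204449-6204508, was matched in the array design to an Ensembl transcript only. No annotation of hg19 was used here, so exon and intron were not assigned from these positions.

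In MDS-L cells, AZA was accompanied by higher signal of VWF, PPBP, GP1BB, GP9 and GP6. These 5 of the 6 measured genes were called higher and 0 were called lower, where 4.63% of all measured genes were called higher and 3.23% lower. The median log2 ratio of the 6 was 3.31, or 3.13 with dim vehicle signals set at their bound, against -0.13 over all genes. GP9 and GP6 entered this count only through the AZA array, on which they were bright, so they could not have been called lower. In MDS-L/CDA cells, VWF and PPBP were called higher among 4 measured genes and 0 were called lower, where 2.49% of all measured genes were called higher and 3.79% lower. PPBP passed the filter there only through the AZA array, so it could not have been called lower either. The median there was 1.19 on the log2 scale, or 1.18 at the bound, against 0.015 over all genes.

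**Figure D1:**
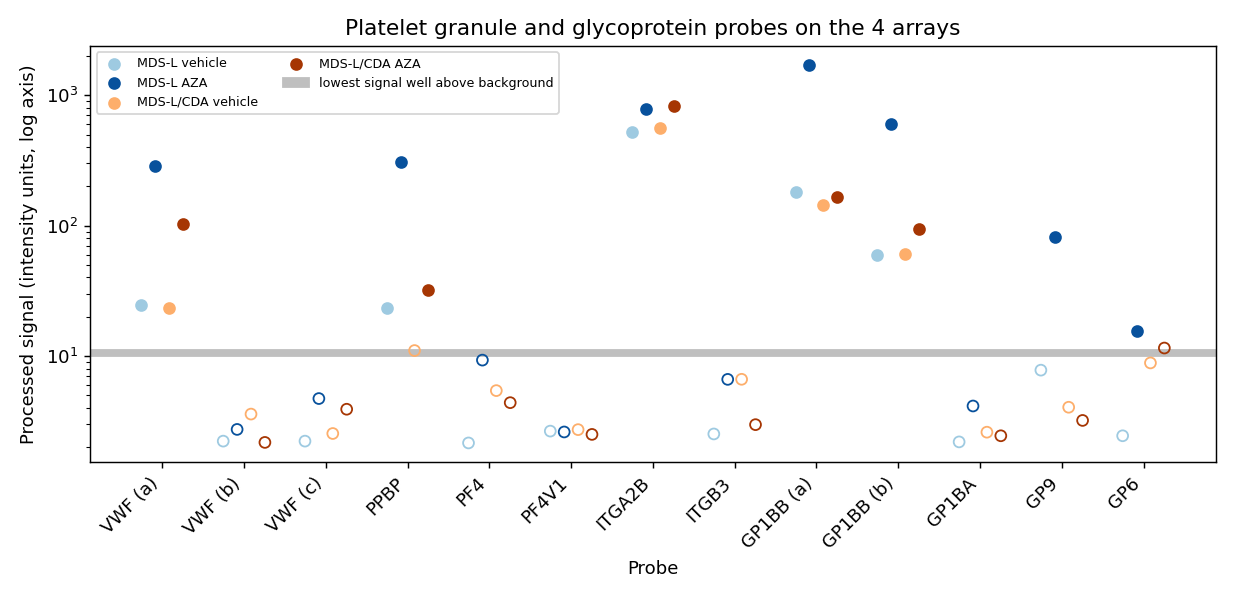
Processed signal of the 13 probes on the 4 arrays, in intensity units before scaling, on a log axis. Filled points were well above background, open points were not, the grey band spans the lowest signals well above background (9.98 to 11.1), and signals of different probes are not comparable. VWF (a), PPBP and both GP1BB probes are brightest on the MDS-L AZA array, whereas ITGA2B runs from 524 on MDS-L vehicle to 834 on MDS-L/CDA AZA.

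VWF, the carrier of factor VIII and the adhesive ligand of GP1BA, was read by VWF (a) at 24.7 ± 3.26 with vehicle and 285 ± 28.6 with AZA in MDS-L, and 23.5 ± 3.38 with vehicle and 103 ± 10.5 with AZA in MDS-L/CDA, where each error is the one that the scanner software assigned to the spot and holds no variation between cultures. The vehicle arrays of the 2 lines lay within these errors of each other, and both AZA arrays lay well outside them. The ratio of scaled signals was 11.5 in MDS-L and 4.78 in MDS-L/CDA. Among probes well above background on both arrays, 25 of 19448 had a larger ratio in MDS-L and 13 of 18080 in MDS-L/CDA. Of the members measured on both MDS-L/CDA arrays, VWF had the highest rank.

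The other VWF probes did not follow. VWF (b), 74.7 kb from VWF (a), was below background on all 4 arrays, at 2.22, 2.73, 3.58 and 2.17 in the same order. VWF (c), 146 kb away, was also below background throughout, with signals of at most 4.71. The call for VWF rests on VWF (a), the most 3′ of the 3 probes, and why the probes differ was not tested.

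PPBP encodes pro-platelet basic protein, the precursor of the α-granule chemokine NAP-2. Its signal was 23.5 ± 3.25 with vehicle and 308 ± 30.9 with AZA in MDS-L, and 11 ± 2.67 with vehicle and 32.1 ± 3.91 with AZA in MDS-L/CDA. MDS-L AZA stood alone at the top, and the MDS-L/CDA vehicle signal was the only one not well above background, at 99.2% of the lowest signal with the flag. AZA gave a ratio of 13 in MDS-L, with 22 of 19448 probes above it, and of at least 3.17 in MDS-L/CDA.

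PF4 encodes platelet factor 4, an α-granule chemokine that binds heparin. Its probe, at chr4:74846915-74846974 on the minus strand and 6324 bases from the PPBP probe, gave 2.15 with vehicle and 9.29 with AZA in MDS-L, and 5.42 with vehicle and 4.38 with AZA in MDS-L/CDA. None was well above background, and the highest, in MDS-L AZA, reached 92.2% of the lowest signal with the flag. PF4 therefore has no ratio, although its neighbour PPBP does.
PF4V1, a close relative of PF4, has a probe at chr4:74720137-74720196 on the plus strand, 126718 bases from that of PF4. It gave 2.65, 2.61, 2.72 and 2.5 on the 4 arrays, all below background. The PF4 and PF4V1 probes share at most 21 matching bases at any offset and no stretch longer than 6, so the 2 genes were read by dissimilar probes.

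GP1BB, the β chain of GPIb, had 2 probes on the plus strand of chromosome 22, GP1BB (a) at chr22:19712238-19712297 and GP1BB (b) at chr22:19712183-19712242, whose positions share 5 bases. GP1BB (a) gave 182 ± 18.3 with vehicle and 1713 ± 171 with AZA in MDS-L, and 145 ± 14.7 with vehicle and 166 ± 16.8 with AZA in MDS-L/CDA. GP1BB (b) gave 59.1 ± 6.33, 604 ± 60.4, 60.7 ± 6.65 and 93.6 ± 9.70 in the same order. Both probes set MDS-L AZA apart. The other 3 arrays were close together for GP1BB (a), while for GP1BB (b) MDS-L/CDA AZA lay above both vehicle arrays. The ratio with AZA was 9.33 and 10.1 in MDS-L, which the call counts once, and 1.25 and 1.69 in MDS-L/CDA, where neither probe was called.

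Both GP1BB probes also match read-through transcripts from SEPT5, the septin gene upstream of GP1BB, so their signal can include that RNA. The SEPT5 probe lies 2872 bases before GP1BB (a). It gave 8.68 with vehicle and 21.9 with AZA in MDS-L, and 2.57 with vehicle and 2.45 with AZA in MDS-L/CDA. Only the MDS-L AZA signal was well above background, a ratio of at least 2.18, and the part of SEPT5 transcription in the GP1BB signal was not tested.

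GP9, the small subunit of the complex, was read at chr3:128781186-128781245 on the plus strand. Its signal was 7.78 with vehicle and 82.2 ± 8.52 with AZA in MDS-L, and 4.04 with vehicle and 3.20 with AZA in MDS-L/CDA. Only MDS-L AZA was well above background, which gave a ratio of at least 8.18 in MDS-L and none in MDS-L/CDA.
GP1BA, the VWF-binding chain, was read at chr17:4837421-4837480 on the plus strand by a probe that gave 2.19, 4.13, 2.60 and 2.44 on the 4 arrays, all below background. Of the 3 subunit genes GP1BA, GP1BB and GP9, 2 were thus called higher with AZA in MDS-L and the ligand-binding chain was not measured.

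ITGA2B, the αIIb chain of the platelet integrin, was bright on every array. It gave 524 ± 52.5 with vehicle and 791 ± 79.1 with AZA in MDS-L, and 561 ± 56.2 with vehicle and 834 ± 83.4 with AZA in MDS-L/CDA. Both lines were a little brighter with AZA, at ratios of 1.5 in MDS-L and 1.63 in MDS-L/CDA, and neither was called. In MDS-L, 10.3% of probes measured on both arrays had a larger ratio than ITGA2B, and in MDS-L/CDA 5.38% had. ITGB3, the β3 chain, was read at chr17:45389027-45389086 on the plus strand and gave 2.52, 6.61, 6.62 and 2.97, all below background, so the chain that pairs with αIIb was not measured.

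GP6 was read at chr19:55525400-55525459 on the minus strand, at 2.44 with vehicle and 15.5 ± 2.99 with AZA in MDS-L, and 8.84 with vehicle and 11.5 with AZA in MDS-L/CDA. Only the MDS-L AZA signal was flagged well above background, and it lay close to the MDS-L/CDA AZA signal. The call in MDS-L came from a computed ratio of 6.32 with a Z score of 2.08, while the bound was only at least 1.54, which is under the ratio the call asks for. GP6 was not called, and 4 members were, with scaling to the median, quantile normalization, normexp correction or the authors' value table.

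**Figure D2:**
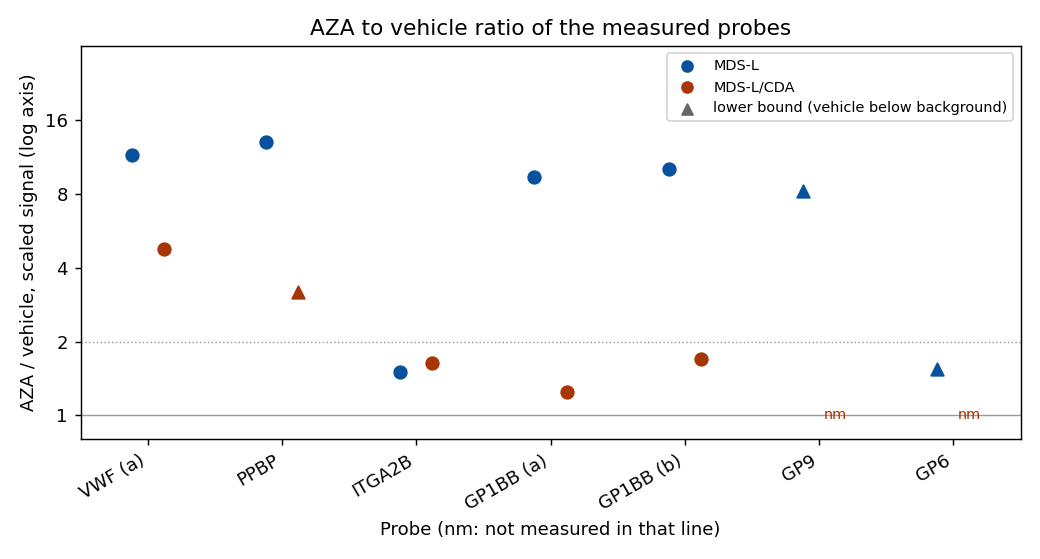
Ratio of AZA to vehicle, from scaled signals on a log axis, for the 7 probes well above background on at least 1 array. Circles are ratios of signals above background on both arrays, triangles are lower bounds, nm marks a probe not measured in that line, and the dotted line is a ratio of 2. VWF, PPBP, GP1BB and GP9 lie at 8.18 or above in MDS-L, and all MDS-L/CDA points lie at 4.78 or below.

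The response of the 2 lines can be set side by side where a probe was above background on all 4 arrays. The MDS-L ratio divided by the MDS-L/CDA ratio was 2.40 for VWF, 7.44 for GP1BB (a), 6.02 for GP1BB (b) and 0.921 for ITGA2B. GP1BB thus differed most between the lines and ITGA2B least, and with 1 array per condition these differences were not tested.

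With vehicle, 0 of 4 measured members were called higher and 0 lower in MDS-L/CDA relative to MDS-L, where 1.58% of all measured genes were called higher and 3.59% lower. The ratio was 1.23 for VWF, 1.38 for ITGA2B, 1.02 for GP1BB (a) and 1.33 for GP1BB (b), and PPBP was above background only in MDS-L. With AZA, 3 of 6 members were called lower in MDS-L/CDA and 0 higher, where 4.32% of all measured genes were called lower and 2.61% higher. GP9 and GP6 passed the filter only through the MDS-L AZA array, so they could not have been called higher, and GP9 is 1 of the 3 calls.
PPBP was 6.76-fold lower in MDS-L/CDA AZA than in MDS-L AZA, GP1BB was 7.26-fold lower by GP1BB (a) and 4.54-fold by GP1BB (b), and GP9 was at least 5.25-fold lower. VWF stood at a ratio of 0.510 with a Z score of -1.50 and was not called. The median over the 6 was -1.86 on the log2 scale, or -1.68 at the bound, against 0.17 over all genes. This comparison shares the MDS-L AZA array with the AZA comparison in MDS-L, so a high signal there enters both.

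Other genes of platelets were described from lists of related function. Of 25 other granule genes, 15 were measured in MDS-L, 3 were called higher and 0 lower, with a median log2 ratio of 0.46. The 3 were the chemokine CCL5 at a ratio of at least 5.23, the granule proteoglycan SRGN at 3.11 and the protease inhibitor TIMP1 at 2.57. In MDS-L/CDA, 2 of 13 measured were called higher, SRGN at 2.63 and the matrix protein SPARC at 2.05, with a median of 0.49. Called lower was 1 probe of the growth factor gene VEGFA at 0.416, while the brightest VEGFA probe was at 1.27.

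Of 26 other platelet receptor genes on the array, 17 were measured in MDS-L, 4 were called higher and 0 lower, with a median of 0.74. They included the prostacyclin receptor PTGIR at a ratio of at least 16.2, the junction protein ESAM at 4.15 and the thrombin receptor F2RL3 at 2.81. Also called was the thromboxane receptor TBXA2R, by 1 of 3 probes, at at least 10.5. The brightest TBXA2R probe, above background on all 4 arrays, was at 1.08 in MDS-L and 1.07 in MDS-L/CDA. In MDS-L/CDA, 3 of 16 measured were called higher, CD36 at at least 3.13, ESAM at 2.89 and F2RL3 at 2.77, and 1 probe of the laminin receptor chain ITGA6 was called lower at 0.485, with a median of 0.31. In MDS-L, CD36 had a ratio of 4.56 and the ITGA6 probes 0.428 and 0.520, none of them called, so these genes are not shown to differ between the lines.

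Of 24 platelet signalling, cytoskeleton and eicosanoid genes, 23 were measured in MDS-L and 3 were called higher, with 0 lower and a median of 0.27. These were the 12-lipoxygenase gene ALOX12 at a ratio of at least 9.13, the myosin light chain gene MYL9 at at least 7.69 and the adaptor gene LAT at 7.41 and 7.26 by its 2 probes. LAT was the only 1 of 21 measured that was called higher in MDS-L/CDA, at 2.95 and 3.03, with 0 lower and a median of 0.22. The members' median in MDS-L (3.31) was thus above that of each of these lists.

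The transcription factors of megakaryocytes were measured in full in MDS-L, 19 of 19, with 4 called higher, 0 lower and a median log2 ratio of 0.15. GATA1, the erythroid and megakaryocytic factor that binds GATA motifs, gave 66.3 with vehicle and 763 with AZA in MDS-L, and 20.7 with vehicle and 77.4 with AZA in MDS-L/CDA. Its ratio with AZA was 11.4 in MDS-L and 4.10 in MDS-L/CDA, and MDS-L AZA was the highest of the 4 arrays, as it was for VWF, PPBP and GP1BB. NFE2 at 2.59 and GATA2 at 2.46 were also called in MDS-L. In MDS-L/CDA, TAL1 at 2.35 and GATA2 at 2.01 joined GATA1 among 18 measured, 1 of 2 probes of ETV6 was called lower at 0.477 while the other was at 0.963, and the median was 0.37.
GATA1 was also the only 1 of 18 regulators called between the lines with vehicle, at a ratio of 0.402 in MDS-L/CDA to MDS-L. With AZA, 2 of 19 regulators were called lower in MDS-L/CDA and 0 higher, GATA1 among them at 0.144. Of the granule genes 1 of 15 was called lower, CCL5 at least 3.36-fold, and 0 higher. Of the receptors 3 of 17 were called lower and 0 higher. They were PTGIR at least 9.92-fold, 1 probe of TBXA2R at least 6.72-fold and 1 probe of PECAM1 at least 1.39-fold. The brightest probe of TBXA2R was at 1.13 and that of PECAM1 at 0.307, neither of them called. Of the signalling genes 4 of 23 were called lower, ALOX12 at least 5.86-fold, MYL9 at least 4.94-fold, and 1 of 2 probes each of LAT at 0.348 and of PTGS1 at 0.359. The kinase gene SYK was called higher, at 2.01.

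**Figure D3:**
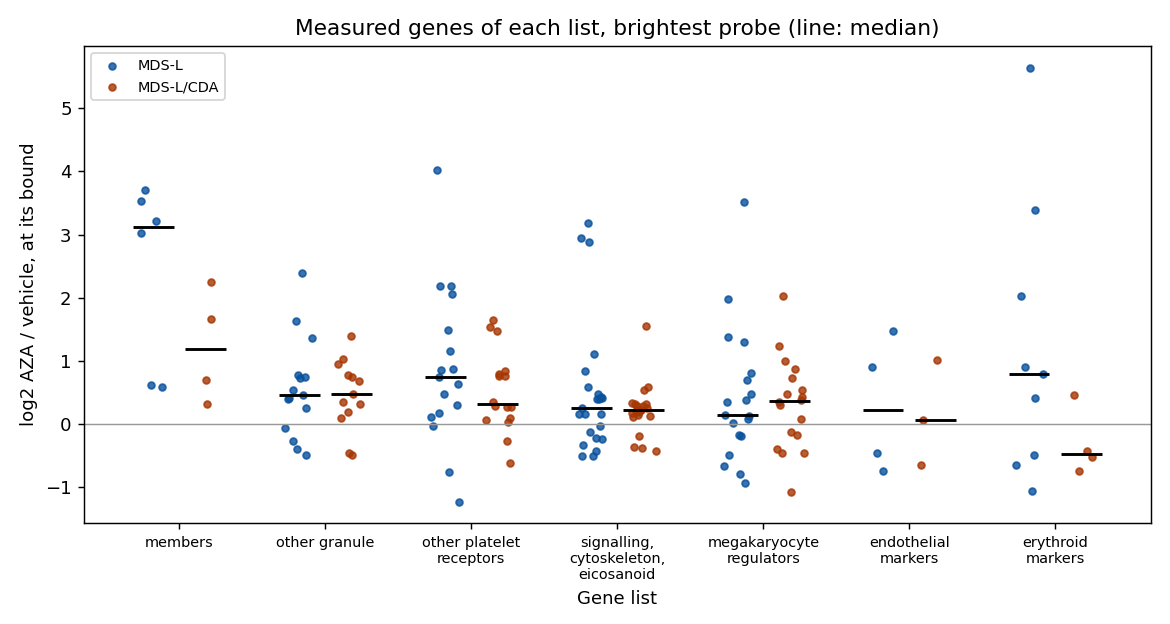
Log2 ratio of AZA to vehicle for the measured genes of 7 lists, each gene by its brightest probe and with dim signals set at their bound. Each point is a gene, blue for MDS-L and orange for MDS-L/CDA, and the black lines are medians. The members' median at the bound is 3.13 in MDS-L and 1.18 in MDS-L/CDA, and the medians of the other platelet and regulator lists lie between 0.15 and 0.74.

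Sums of scaled signal per list are a description only, since signals of different probes are not comparable and the brightest weigh most. The members summed to 14.7 with vehicle and 60.8 with AZA in MDS-L, and 18.9 with vehicle and 31.2 with AZA in MDS-L/CDA. ITGA2B, which was not called, made up 9.98, 14.9, 13.8 and 22.4 of these sums in the same order. GP1BB (a) made up 3.47, 32.4, 3.55 and 4.46. VWF is also made by endothelial cells, and 3, 4, 3 and 3 of 11 endothelial markers were above background on these arrays, with sums of 59.5, 39.4, 73.6 and 77.2. By the brightest probe, CDH5, KDR, TEK, EMCN, CLDN5, ROBO4 and SOX17 were not above background on any array. TIE1, ERG and EGFL7 were above it on all 4 arrays, and PLVAP on MDS-L AZA only. In MDS-L, 0 of 4 measured endothelial markers were called, and their median was 0.22 on the log2 scale. In MDS-L/CDA 1 of 3 was called higher, TIE1 at 2.03, which in MDS-L was at 1.87 and not called. The part of endothelial transcription in the VWF signal was not tested.
Of the erythroid markers, 4 of 13 were above background in MDS-L vehicle and 9 in MDS-L AZA, with sums of 5.90 and 16.4, against 6.07 and 5.56 in MDS-L/CDA. Of the 9 measured in MDS-L, 2 were called higher and 0 lower, with a median log2 ratio of 0.80, and 6 had a ratio above 1. HBG1, a fetal globin gene with a near-identical copy, had a ratio of at least 49.9 and HBA2 of at least 10.5. KLF1 was at 0.639, EPOR at 0.716 and EPB42 at 0.483, and none of these was called. In MDS-L/CDA 0 of 4 measured erythroid markers were called. Of the granulocyte and monocyte markers, 0 of 5 measured were called in MDS-L, and CD14 at at least 1.95 and ITGAM at at least 1.40 were called among 3 in MDS-L/CDA. More cells of a type and more RNA per cell cannot be told apart in these bulk samples, and the part of erythroid transcription in the result was not tested.

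PPBP, PF4 and PF4V1 lie in the chemokine cluster of 4q13, and the genes around them were measured too. Of 14 neighbours on the array, 9 were measured in MDS-L and 5 were called higher, 0 lower, with a median log2 ratio of 2.16, or 1.02 at the bound. The albumin gene ALB, 568 kb before the PPBP probe, had a ratio of 49.3 and AFP, the α-fetoprotein gene, of at least 5.25. Among the chemokines, CXCL3 had a ratio of 4.48, and CXCL2 had 4.07 by its dimmer probe and 2.02 by its brighter probe. CXCL5, 8.60 kb from PPBP, had 2.10 and was not called. EPGN at at least 2.02 was the fifth call, named here although the naming rule stops at 4.
In MDS-L/CDA, 3 of 6 measured were called higher, 0 lower, with a median of 0.93. They were CXCL2 at 2.92 by its dimmer and 2.09 by its brighter probe, CXCL3 at 2.47 and ALB at at least 2.03. CXCL1, CXCL6, AREG, BTC and AFM were below background on every array. Of these, AFM, CXCL6 and CXCL1 lie between ALB and PPBP, while AREG and BTC lie beyond EPGN.

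**Figure D4:**
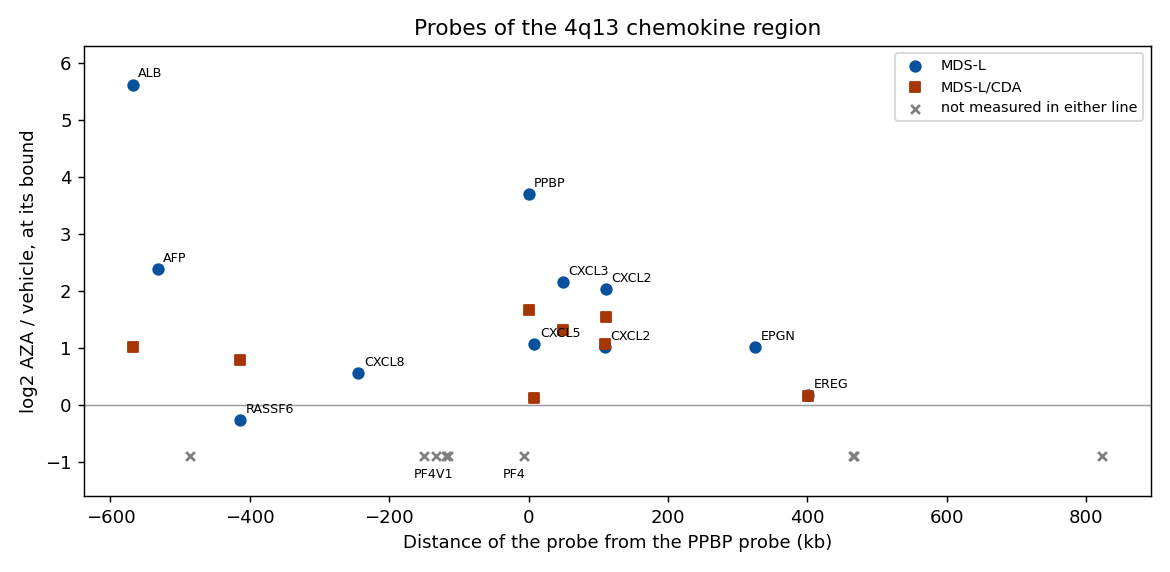
Log2 ratio of AZA to vehicle, at its bound where vehicle was below background, against the distance in kb of each probe from the PPBP probe. Blue circles are MDS-L, orange squares MDS-L/CDA, and grey crosses mark probes not measured in either line, placed below 0 for display. Of the values plotted for MDS-L, those of ALB (5.62) and PPBP (3.70) are the highest. Those of AFP (2.39), EPGN (1.02) and CXCL8 (0.56) are lower bounds, so their rank is not known. PF4, 6.38 kb from PPBP, was not measured.

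Around the other members, probes within 100 kb were taken as the neighbourhood. Near GP1BB, 1 of 3 measured probes was called higher in MDS-L, that of TBX1, a T-box factor gene, at a ratio of at least 8.57. It lies 42550 bases from GP1BB (a), while GNB1L, 63814 bases away, was at 0.528. Near GP9, 1 of 4 was called higher, KIAA1257 at at least 3.99, and RAB43, 25335 bases away, was at 0.757. Near ITGA2B and GP6, 0 of 5 measured probes each were called higher in MDS-L, and near GP1BA 2 of 11 were, ENO3 at 2.93 and CHRNE at at least 1.32. No probe of another gene lay within 100 kb of VWF (a). The genes named in this neighbourhood, SEPT5 among them, lie outside the naming rule and were chosen after their values were seen.

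The genes with profiles most like those of the members were found among probes well above background on all 4 arrays, by the Euclidean distance between log2 profiles centred over 4 arrays. With 4 points that share arrays this is a description. For VWF (a) they were HOXB5 at a distance of 0.54, LAT at 0.67, FCGR2B at 0.68, CYP1A1 at 0.69 and FCGR2A at 0.70. For GP1BB (a) they were RASD1 at 0.17, FGR at 0.28, a transcript with no gene symbol at 0.39, HSPA2 at 0.41 and STAR at 0.49, and for GP1BB (b) HIST1H2BK at 0.25, FGR at 0.43, TM6SF1 at 0.44, KIRREL3 at 0.46 and HSPA2 at 0.48. FGR and HSPA2 were near both GP1BB probes. For ITGA2B the 5 nearest lay between 0.061 and 0.090 and were lnc-SLC15A1-1, LOC102723354, YTHDF3, SMIM15 and INPPL1.

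Promoter sequence was available for 6 of the 10 genes from RefSeq (GRCh38.p14) and is shown, as the 250 bases before the gene's start, for 3 genes called higher in MDS-L and for ITGA2B, which was not called. Capitals mark GATAA or its reverse complement TTATC, a core GATA motif, and GGAAG or its reverse complement CTTCC, a core ETS motif. The regions are chr4:73988191-73988440 on the minus strand for PPBP, chr22:19723289-19723538 on the plus strand for GP1BB, chr3:129060529-129060778 on the plus strand for GP9 and chr17:44389650-44389899 on the minus strand for ITGA2B.
PPBP: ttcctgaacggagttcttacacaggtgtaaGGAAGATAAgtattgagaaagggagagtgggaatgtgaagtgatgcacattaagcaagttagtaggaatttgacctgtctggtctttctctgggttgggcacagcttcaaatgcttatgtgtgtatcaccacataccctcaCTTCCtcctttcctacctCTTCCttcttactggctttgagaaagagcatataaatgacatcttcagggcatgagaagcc
GP1BB: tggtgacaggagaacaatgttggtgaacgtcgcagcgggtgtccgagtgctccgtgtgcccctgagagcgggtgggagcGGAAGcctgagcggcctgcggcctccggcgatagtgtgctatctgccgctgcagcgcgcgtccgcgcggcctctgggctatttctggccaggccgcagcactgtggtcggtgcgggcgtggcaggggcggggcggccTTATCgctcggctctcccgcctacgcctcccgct
GP9: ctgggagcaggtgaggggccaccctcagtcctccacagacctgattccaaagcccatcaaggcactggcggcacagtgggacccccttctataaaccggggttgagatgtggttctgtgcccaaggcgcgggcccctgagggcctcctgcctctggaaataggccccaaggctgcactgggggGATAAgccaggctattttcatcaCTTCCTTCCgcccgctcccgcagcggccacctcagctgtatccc
ITGA2B: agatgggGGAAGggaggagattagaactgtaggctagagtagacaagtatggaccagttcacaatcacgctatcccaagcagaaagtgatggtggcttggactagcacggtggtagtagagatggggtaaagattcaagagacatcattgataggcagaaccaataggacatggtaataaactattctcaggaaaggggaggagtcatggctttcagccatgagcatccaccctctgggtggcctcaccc
GATAA was found in 5 of the 6 promoters, all but ITGA2B, and GGAAG in 6 of 6. Of 35116 promoters of that length, 20.4% hold GATAA, 65.1% hold GGAAG and 12.1% hold both. Other forms of the GATA motif were not searched for, and the ITGA2B and GP1BB sequences shown each hold GATAG. In PPBP the motifs overlap by 1 base, GGAAG starting 220 and GATAA 216 bases before the start. GATAA started 34 bases before the start in GP1BB, on the opposite strand, 67 in GP9, 176 in GP6 and 30 in PF4V1. PF4V1 holds both motifs and gave no signal well above background on any array.
CpG dinucleotides, the sites that DNA methyltransferases act on, numbered 29 in GP1BB, 10 in GP6, 8 in GP9, 3 in PF4V1, 2 in ITGA2B and 1 in PPBP, where the median over all promoters is 11. GP1BB and PPBP stand at opposite ends of this range, and 14.7% of promoters hold no more CpG than that of PPBP. A relation between CpG count and the ratios with AZA was not tested. Methylation was not measured on these arrays.

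**Figure D5:**
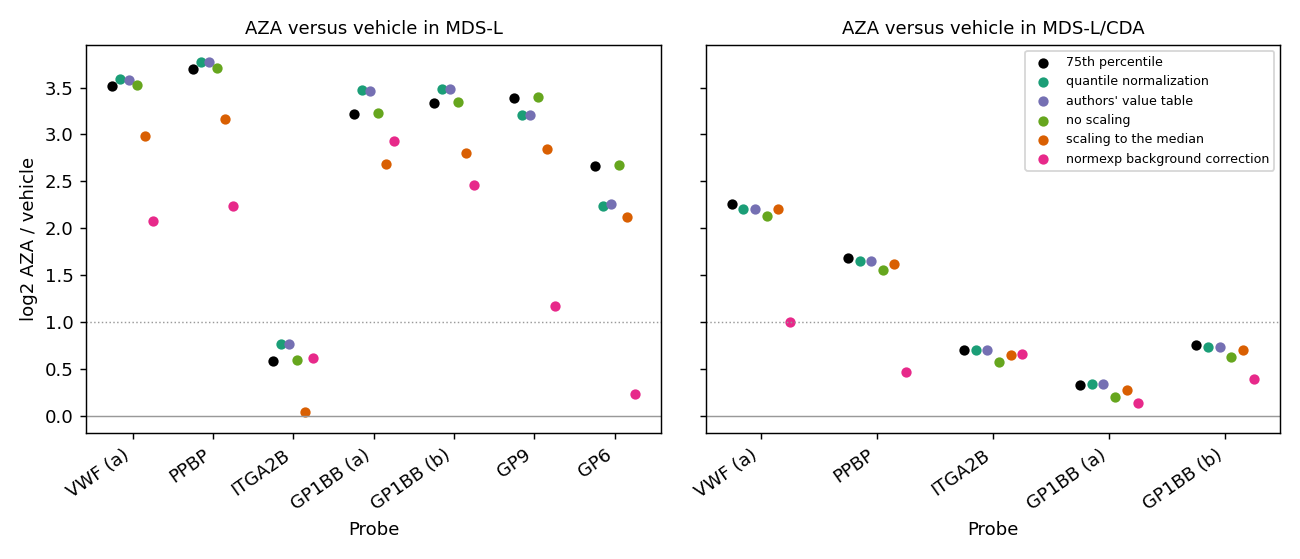
Log2 ratio of AZA to vehicle of each measured probe under 6 ways of scaling or background correction, in MDS-L (left) and MDS-L/CDA (right), with a dotted line at a ratio of 2. For VWF and PPBP the normexp correction gives the lowest ratio in each line, and in MDS-L VWF runs from 4.23 to 12 and PPBP from 4.72 to 13.6.

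Of the 6 ways, the normexp background correction gave the lowest MDS-L ratio for VWF, PPBP, GP1BB (b), GP9 and GP6, and scaling to the median the lowest for ITGA2B and GP1BB (a). In MDS-L, GP1BB (a) ran from 6.41 to 11.1, GP1BB (b) from 5.50 to 11.2 and GP9 from 2.25 to 10.6 as computed over the 6 ways. GP6 ran from 1.17 to 6.36, and ITGA2B from 1.03, with scaling to the median, to 1.69. In MDS-L/CDA, VWF ran from 2.00 to 4.78, PPBP from 1.38 to 3.19 and ITGA2B from 1.48 to 1.63. The other ends of the ranges given here come from log2 ratios rounded to 2 decimals.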

How the data were processed

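Total RNA of both lines, with vehicle or AZA, was measured on 4 one-colour arrays. The authors deposited scanner output made with Feature Extraction 10.7.1.1, per the submitters' processing notes, whose intensity values are background-subtracted and not normalized between arrays, and a value table of 51680 probes in intensity units whose 4 sorted columns, without the 100 lowest and highest values, agree within 0.039 on the log2 scale. That table's medians lie between 4.21 and 4.31 and its normalization is not stated.

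From the deposited intensity, control spots and flagged outliers were left out, 16 probes in all, the spots of each probe were averaged as log2 signals, and each array's 75th percentile was subtracted. The Z score is the log2 ratio over the SD of log2 ratios in 10 bins of mean signal. The bins were chosen here. A gene with several probes was called when 1 passed, and medians use the brightest probe. The SD between spots of a probe was 0.18 to 0.29 on the log2 scale. Precision is limited by the number of arrays.

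The members, the lists, the rule for naming genes and the alternatives were chosen with earlier results of these data known. All member probes are named, and from the other lists the called genes, at most 4 per list and comparison by size. Some genes that were not called, FLI1 and RUNX1 among them, are named beside these. The values of 1 called regulator are not reported here. The code that makes the calls was checked on simulated arrays with known changes. Alternatives were 5 normalizations (median, none, quantile, normexp with an offset of 50, and the value table) and 2 other filters on low signal. Others were no Z score, a Z score from 1 SD over measured probes, a ratio of 1.5, bounds, and other ways of joining several probes. MPIG6B, IL8, HBA1, HBG2 and LYZ had no probe of that name. The normexp correction ran in limma 3.58.1 under R 4.3.3, and everything else in Python 3.11.15 with numpy 2.4.6, pandas 2.3.3 and matplotlib 3.10.9.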

Additional observations from a re-analysis of the deposited data

How the results depend on the processing

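No called ratio of a member probe changed direction under the 5 other normalizations, and the values of the other lists were not recomputed. Of the 5 members called higher in MDS-L, 4 were called with scaling to the median, quantile normalization, normexp or the authors' value table, all but GP6, and with no scaling VWF too was called lower between the lines with AZA, which made 4 such calls. When both arrays had to be well above background, there were 3 members called higher with AZA in MDS-L and 1 in MDS-L/CDA, where the median log2 ratio became 0.70, because it removes GP9, GP6 and the MDS-L/CDA value of PPBP by construction. With normexp correction, which adds an offset to every signal, 0 members were called higher in MDS-L/CDA, and the medians were 1.63 in MDS-L, 0.56 in MDS-L/CDA and -0.98 between the lines with AZA. Scaling to the median gave 2.76 in MDS-L and -0.36 between the lines with vehicle, and it moved the median of all probes in these comparisons from -0.12 to -0.67 and from 0.067 to -0.46. No scaling gave -0.20 between the lines with vehicle and -2.37 with AZA. Without a filter on dim probes the medians were 2.38 in MDS-L, 0.18 in MDS-L/CDA and -0.61 between the lines with AZA, and 1 member, PF4, was called higher between the lines with vehicle. The mean over the probes of a gene gave 2.97, 0.75 and -1.35 in the same order, because it includes the dim VWF probes. Signal near background limits GP6, GP9 and PPBP in MDS-L/CDA, and leaves PF4, PF4V1, ITGB3 and GP1BA unmeasured. No paired analysis was possible because each condition has 1 array.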
